A study of Mus musculus with 4 samples.

Results

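The enzymes that turn farnesyl diphosphate into cholesterol by way of squalene were followed in regenerating mouse liver through 9 genes, Fdft1, Sqle, Lss, Cyp51, Tm7sf2, Nsdhl, Hsd17b7, Sc5d and Dhcr7. They were found by gene symbol among 10923 measured genes and were read by 18 of the 17209 probe sets that carry a single symbol. The livers came from male C57BL6/J mice aged 6 to 13 weeks that received 1 injection of siRNA in Invivofectamine 3.0, a lipid carrier for RNA delivery in the living animal. After 3 days 40% of the liver was removed, and RNA was taken from the regenerating remnant 48 hours later. The siControl group, given control siRNA, and the siOrm group, given siRNA against Orm1, the gene of the secreted acute phase protein orosomucoid, had 2 arrays each, and both groups shared the strain, the operation and the time of sampling. The titles siOrm1 and siOrm2 were read as replicate numbers, because the source name and the description put both arrays in 1 group; the labels do not say whether an array is 1 mouse or a pool, so the spread between arrays may be technical.

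Squalene synthase (Fdft1) joins farnesyl diphosphate molecules into squalene, which is the first step that serves sterols alone. Squalene epoxidase (Sqle) and lanosterol synthase (Lss) then make lanosterol, the first sterol, and the later enzymes trim its methyl groups, reduce or shift its double bonds and end at cholesterol. In liver these genes are known as targets of the transcription factor encoded by Srebf2, which is released to the nucleus when the membranes of the endoplasmic reticulum hold little sterol, and growing cells draw on the pathway for new membrane.

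All values are log2 signals set relative to each probe set's median over the 4 arrays, so they show how arrays differ for a gene and not how much RNA the gene gave. Levels of different genes, absent genes and the defining markers of liver cells can therefore not be read from this table. In whole-liver RNA fewer cells of a type and less RNA per cell cannot be told apart. Differences are siOrm minus siControl, tested two-sided with limma and with Benjamini-Hochberg adjustment over all genes. Of 10923 genes, 0% were lower and 0% were higher at an adjusted p under 0.05, with a smallest adjusted p of 0.857. At an unadjusted p under 0.05, 2.58% were lower and 2.18% higher, 282 and 238 genes. A variance prior that follows the mean value called 8 lower and 3 higher genes, none of them among the 9. Because the values are centred on the median of the 4 arrays, the mean in that prior does not stand for signal level. The targeted gene itself differed little: Orm1 stood at 0.02 and 0.19 in siControl and at -0.24 and -0.02 in siOrm, a difference of -0.23 (SE 0.15; limma, adjusted p = 0.994), while its paralogs Orm2 and Orm3 differed by -1.08 and -0.91 (adjusted p = 0.994 for both). Without siControl replicate 2 Orm1 stood at -0.14, Orm2 at -0.71 and Orm3 at -0.39, and without siOrm replicate 1 Orm1 stood at -0.12 and Orm2 at -0.69. The siControl arrays were less alike than the siOrm arrays, with a standard deviation of the difference over genes of 0.384 against 0.249. Between groups, siControl replicate 1 gave 0.31 with siOrm replicate 1 and 0.233 with siOrm replicate 2. For siControl replicate 2 these values were 0.428 and 0.341. Over all genes the arrays thus did not group by siRNA, since siControl replicate 1 was nearer to both siOrm arrays than to siControl replicate 2.

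Most genes of the squalene to cholesterol route stood lower in the siOrm livers, without any of them passing the test over all genes (limma, adjusted p of 0.994 or more). In 6 of the 9 genes, Sqle, Lss, Cyp51, Nsdhl, Hsd17b7 and Sc5d, the higher siOrm array lay below the lower siControl array, an arrangement that 15.3% of all genes showed. The opposite arrangement held for 1 gene, Tm7sf2, and for 17% of all genes, and the groups overlapped for Fdft1 and Dhcr7. The median difference over the 9 genes was -0.51, with values from -1.33 to 0.46, beside a median of 0.01 over all genes. At an unadjusted p under 0.05 there were 3 lower genes, Sqle, Lss and Cyp51, and 1 higher, Tm7sf2.

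**Figure D1:**
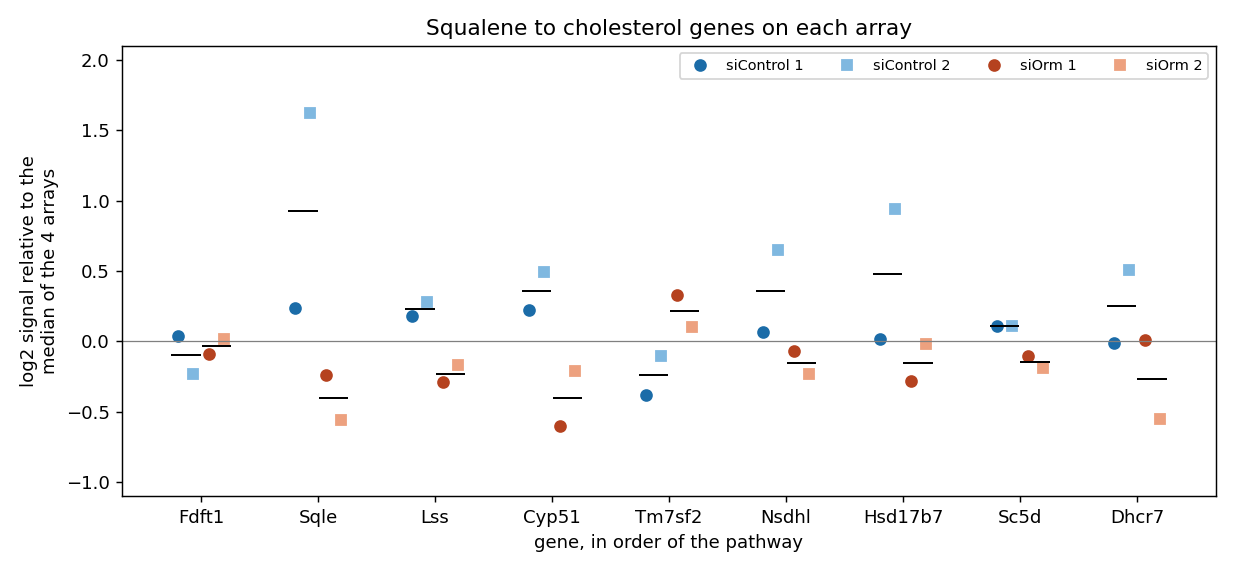
Log2 signal relative to the median of the 4 arrays (vertical axis) for each of the 9 genes in order of the pathway (horizontal axis); points are single arrays and black bars are the means of the 2 arrays of a group. siControl replicate 2 is the highest array for 7 of the 9 genes, and Tm7sf2 runs the other way, with both siOrm arrays above both siControl arrays.

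At the entry of the route the values of Fdft1 lay close together and those of Sqle far apart. Fdft1 stood at 0.04 and -0.23 in siControl and at -0.09 and 0.02 in siOrm. These values overlapped, and the difference was 0.06 (SE 0.15, 95% interval -0.31 to 0.44; limma, adjusted p = 0.999). Sqle, which adds the oxygen that is later the hydroxyl of cholesterol and is one of the rate-controlling steps of the pathway, stood at 0.24 and 1.62 in siControl and at -0.24 and -0.56 in siOrm. Its groups did not overlap, and siControl replicate 2 stood far above the rest. The difference of Sqle was -1.33 (SE 0.44, 95% interval -2.44 to -0.22; limma, adjusted p = 0.994), which on a base 2 scale is a ratio of 0.398 and the 22nd lowest of the 10923 differences. The siControl arrays lay 1.39 apart for Sqle, further than the group means, and without siControl replicate 2 the difference was -0.64.

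Lanosterol is made and first trimmed by Lss and Cyp51, and for both the gap between the groups was wider than the gap within either group. Lss, the cyclase that folds the squalene epoxide into the ring system, stood at 0.18 and 0.28 against -0.29 and -0.17. Arrays of a group were close together and the groups lay 0.35 apart at their nearest points. The difference of Lss was -0.46 (SE 0.13, 95% interval -0.79 to -0.13; limma, adjusted p = 0.994). Cyp51, the cytochrome that removes a methyl group from lanosterol and whose fungal counterpart is the target of azole drugs, stood at 0.22 and 0.49 against -0.60 and -0.21. The nearest arrays of the groups were 0.42 apart, and siOrm replicate 1 was the lowest. The difference of Cyp51 was -0.76 (SE 0.19, 95% interval -1.23 to -0.29; limma, adjusted p = 0.994), the smallest unadjusted p of the 9 genes at 0.00823 by limma. Leaving out any 1 array put Lss between -0.52 and -0.39 and Cyp51 between -0.96 and -0.56, and Lss stood at -0.29 without its probe set 1420013_s_at, whose suffix marks sequence shared between transcripts.

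Tm7sf2 encodes a sterol reductase of the endoplasmic reticulum that acts on the product of Cyp51. It stood at -0.38 and -0.10 in siControl and at 0.33 and 0.10 in siOrm, so that both siOrm arrays were the higher ones. The difference was 0.46 (SE 0.16, 95% interval 0.05 to 0.87; limma, adjusted p = 0.994), and 98.1% of all genes had a lower one. With any 1 array left out it ranged from 0.32 to 0.60. Lbr, the lamin B receptor of the nuclear envelope, carries the same reductase activity and is not one of the 9 genes. Lbr stood at 0.11 and 0.01 in siControl and at -0.45 and -0.01 in siOrm, a difference of -0.29 (SE 0.18; limma, adjusted p = 0.994), and -0.07 without siOrm replicate 1. The difference between Tm7sf2 and Lbr was not tested.

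Nsdhl and Hsd17b7 work in the complex that removes the remaining methyl groups, Nsdhl as the decarboxylating dehydrogenase and Hsd17b7 as the reductase of the keto sterol that results. Nsdhl stood at 0.07 and 0.65 in siControl and at -0.07 and -0.23 in siOrm. Its groups were separated by 0.14, with siControl replicate 2 above the other 3 arrays, and the difference was -0.51 (SE 0.22, 95% interval -1.05 to 0.03; limma, adjusted p = 0.994). Hsd17b7 stood at 0.02 and 0.94 against -0.28 and -0.02. Only 0.03 lay between its nearest arrays, and the difference was -0.63 (SE 0.31, 95% interval -1.40 to 0.15; limma, adjusted p = 0.994). Without siControl replicate 2 the differences of Nsdhl and Hsd17b7 were -0.22 and -0.17. Msmo1, the methyl sterol oxidase that acts before them, had a like arrangement, at 0.04 and 0.81 against -0.04 and -0.31, with a difference of -0.60 (SE 0.27; limma, adjusted p = 0.994) that was -0.22 without siControl replicate 2.

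The last steps were read by Sc5d, the desaturase that forms dehydrocholesterol, and Dhcr7, the reductase that turns this precursor into cholesterol. Sc5d stood at 0.11 and 0.11 in siControl and at -0.10 and -0.19 in siOrm. The arrays of a group lay closer together than for any other of the 9 genes, with a difference of -0.25 (SE 0.13, 95% interval -0.57 to 0.06; limma, adjusted p = 0.994) that stayed between -0.30 and -0.21 without any 1 array. Dhcr7 stood at -0.01 and 0.51 against 0.01 and -0.55. The first arrays of both groups were level and the second arrays were the extremes, so the groups overlapped, and the difference was -0.52 (SE 0.26, 95% interval -1.17 to 0.13; limma, adjusted p = 0.994). Without siControl replicate 2 it was -0.26, and without siOrm replicate 2 it was -0.24; without the first array of siControl or siOrm it was -0.78 and -0.80. Ebp, the isomerase that acts before Sc5d, stood at 0.06 and -0.02 against 0.02 and -0.04, a difference of -0.02 (SE 0.13; limma, adjusted p = 0.999).

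**Figure D2:**
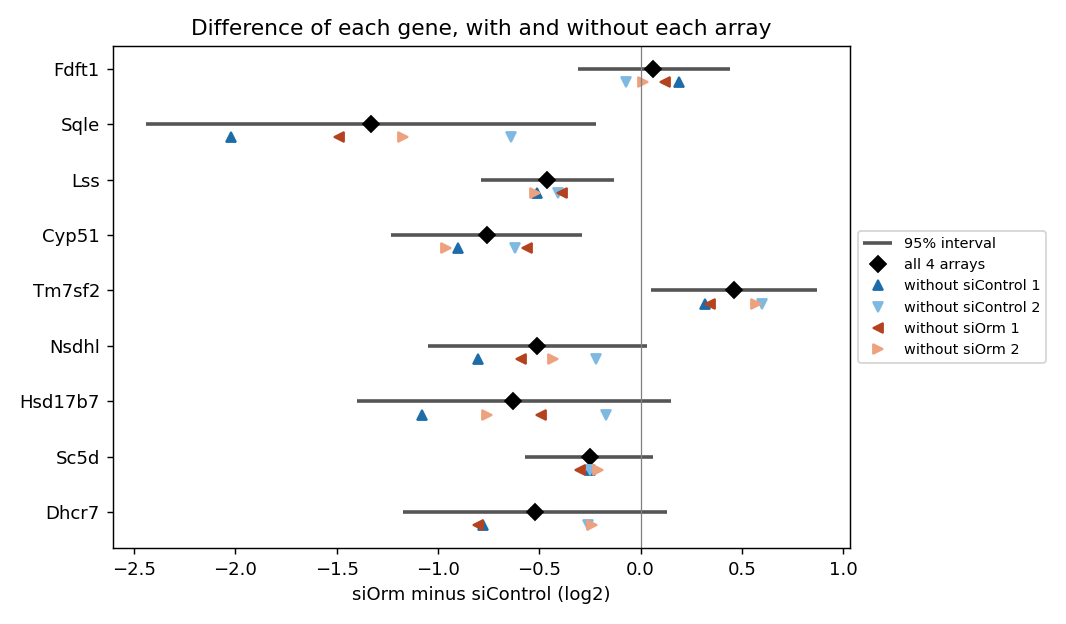
Difference siOrm minus siControl in log2 units (horizontal axis) for each gene (vertical axis); diamonds are the values over all 4 arrays, grey lines their 95% intervals, and triangles the values with 1 array left out. Sqle, Nsdhl and Hsd17b7 move with the siControl arrays, Dhcr7 moves with every array, and Fdft1 changes sign without siControl replicate 2. Lss, Cyp51, Tm7sf2 and Sc5d keep closer to their value over all arrays.

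One array carried much of the size of these differences. siControl replicate 2 had the highest value for 7 of the 9 genes, where it was the highest array for 28.1% of all genes. The median over the 9 genes was 0.07 in siControl replicate 1, 0.49 in siControl replicate 2, -0.10 in siOrm replicate 1 and -0.19 in siOrm replicate 2. Both siOrm medians thus lay below both siControl medians, and the distance from siControl replicate 1 to either siOrm array was smaller than its distance to siControl replicate 2. Without siControl replicate 2 the median difference of the 9 genes was -0.25, with 7 genes whose siOrm arrays both lay below the remaining siControl array, beside 36.8% of all genes. Without siControl replicate 1 it was -0.78, again with 7 genes and beside 33.8% of all genes, and Sqle (-2.02, limma, adjusted p = 0.0125) and Hsd17b7 (-1.08, limma, adjusted p = 0.0404) passed the test. In that fit siControl replicate 2 stands for its whole group and is assumed to vary like the siOrm pair; it called 183 lower and 46 higher genes in all.

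The marker lists of macrophages, stellate cells and sinusoidal endothelium also had their highest median on siControl replicate 2. Unlike the 9 genes, these lists had their lowest median on siControl replicate 1. All 10 listed Kupffer cell and macrophage markers were measured and had a median of -0.26 and 0.60 in the siControl arrays and of 0.00 and 0.02 in the siOrm arrays, and the stellate cell markers, 9 of 10 measured, of -0.24 and 0.44 against 0.02 and 0.15. Sinusoidal endothelial markers had a median of -0.22 and 0.24 against -0.01 and -0.01 over 8 genes, and hepatocyte markers of -0.01 and -0.02 against 0.03 and 0.01 over 9 genes. The medians of the 9 neutrophil markers lay between -0.02 and 0.10, but their single genes differed. S100a8 stood at 0.16 and 2.75 in siControl and at -0.60 and -0.16 in siOrm, and S100a9 at 0.10 and 1.95 against -0.10 and -0.14. On siControl replicate 2 the other measured neutrophil markers lay between -0.27 and 0.14. The medians of the 7 T and B cell markers lay between -0.19 and 0.23, and those of the 7 bile duct markers between -0.04 and 0.06. The part of cell makeup in the values of the sterol genes was not tested.

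**Figure D3:**
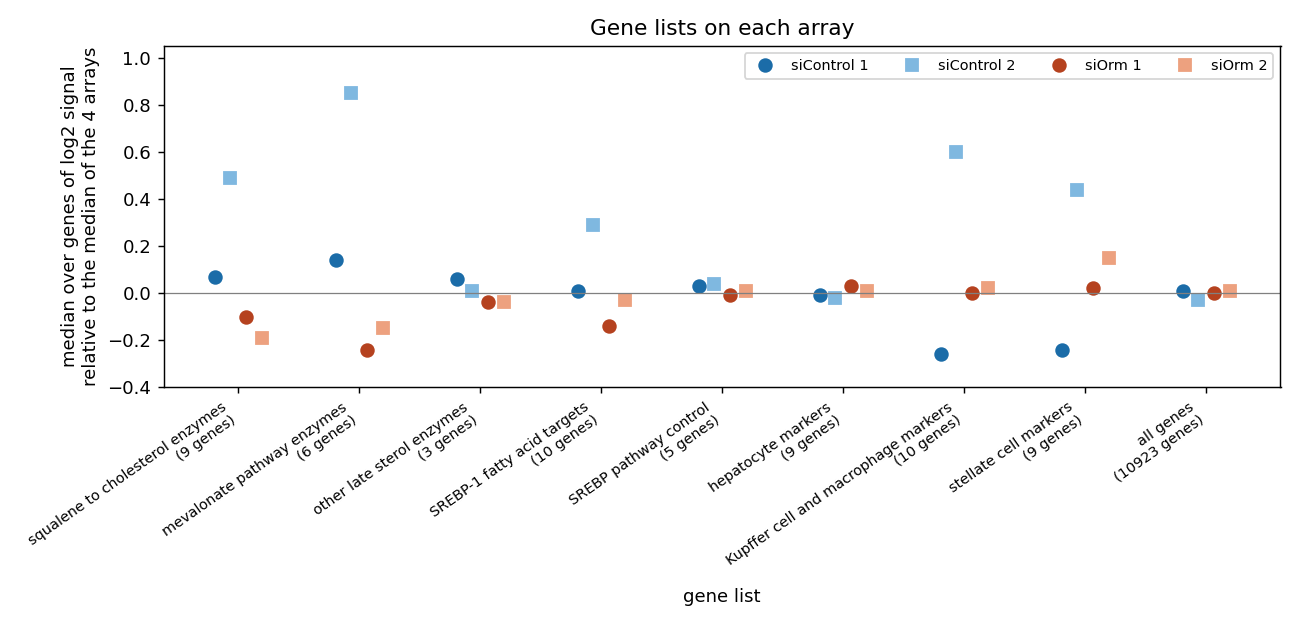
Median over the genes of a list of the log2 signal relative to the median of the 4 arrays (vertical axis), for each gene list with its number of measured genes (horizontal axis); each point is 1 array. siControl replicate 2 is highest for the squalene to cholesterol genes at 0.49, for the mevalonate genes at 0.85 and for the macrophage markers at 0.60, while the hepatocyte markers lie between -0.02 and 0.03 on all arrays.

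The probe sets behind a gene were set side by side, since 5 of the 9 genes were read by several. Of the 18 probe sets, 13 had the siOrm arrays wholly below the siControl arrays, 2 had them above and 3 overlapped; of all 17209 probe sets with a single symbol 15.8% were lower in this way and 16.7% higher. Probe sets of a gene read the same transcripts and are no independent measurements. The 3 probe sets of Cyp51 gave differences of -0.90, -0.60 and -0.77, all separated in the same direction. Those of Lss gave -0.80, -0.22 and -0.35, and those of Sc5d gave -0.18 and -0.33, likewise all separated.

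For Hsd17b7 and Fdft1 the probe sets did not give 1 picture. The Hsd17b7 probe set 1417871_at stood at 0.02 and 1.68 in siControl and at -0.46 and -0.02 in siOrm, a difference of -1.09, while 1448865_at stood at 0.01 and 0.19 against -0.11 and -0.01, a difference of -0.16. The large value of siControl replicate 2 for Hsd17b7 thus came from 1 of its 2 probe sets. The 4 probe sets of Fdft1 pointed both ways. 1448130_at had its siOrm arrays below its siControl arrays, with a difference of -0.18, and 1438322_x_at differed by -0.15 with overlap, whereas 1438918_at had its siOrm arrays above, with a difference of 0.45, and 1438919_x_at differed by 0.13 with overlap. The suffix _x_at marks probe sets that may also match other transcripts. The near-zero mean of Fdft1 is therefore an average over probe sets of opposite sign.

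**Figure D4:**
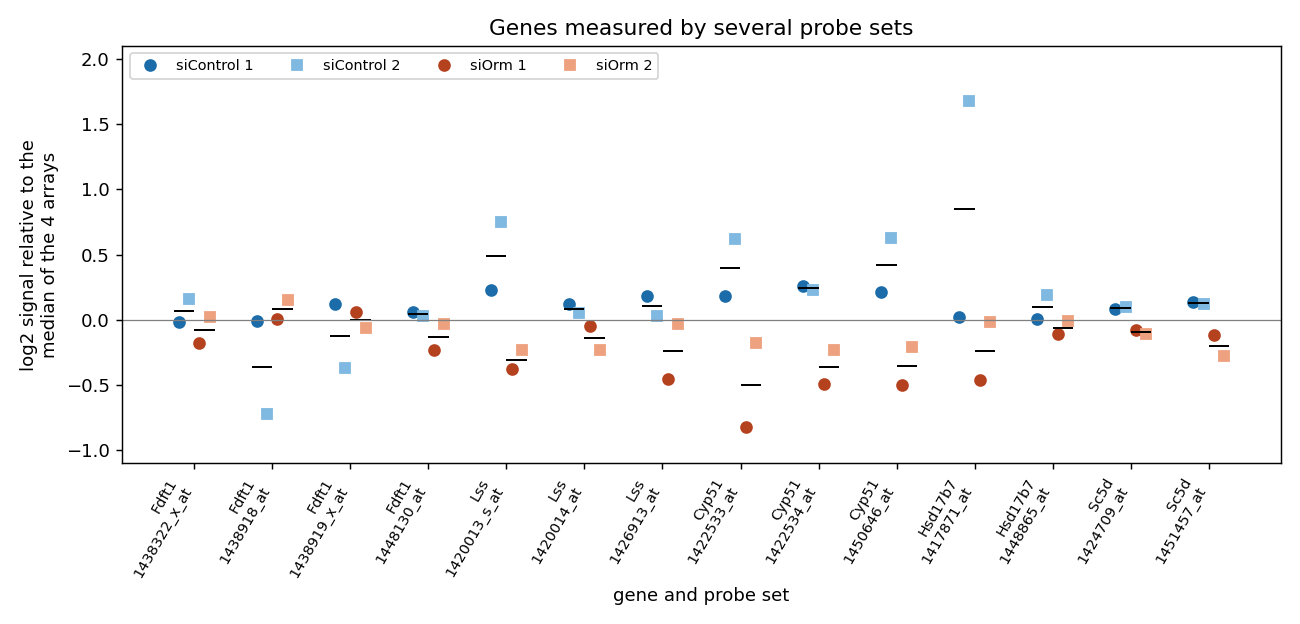
Log2 signal relative to the median of the 4 arrays (vertical axis) for each probe set of the 5 genes with several (horizontal axis); points are arrays and black bars group means. The 3 Cyp51 probe sets run alike, the 2 Hsd17b7 probe sets differ in siControl replicate 2 (1.68 against 0.19), and the Fdft1 probe sets point in both directions.

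The profiles of the 9 genes over the 4 arrays were compared by root mean square distance, as a description over 4 arrays. Nsdhl lay nearest to the mean of the 9 genes, at 0.097 log2 units, followed by Lss at 0.138, and Sqle lay farthest at 0.612, followed by Tm7sf2 at 0.459 and Fdft1 at 0.368. The closest pair was Lss and Sc5d at 0.134, and the most distant was Sqle and Tm7sf2 at 1.016. The mean of the 9 genes was 0.05 and 0.47 in siControl and -0.15 and -0.20 in siOrm. Among all other genes, the 5 nearest to that mean were Kif22 at 0.033, Swap70 at 0.047, Pole at 0.049, Usp1 at 0.051 and Ube2t at 0.052. Kif22 stood at 0.03 and 0.46 against -0.20 and -0.17, a difference of -0.43 (SE 0.18; limma, adjusted p = 0.994).

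Upstream of squalene, the mevalonate pathway builds farnesyl diphosphate from acetyl-CoA. All 6 measured enzymes had differences below 0, in 5 the siOrm arrays lay wholly below the siControl arrays, and 0 passed over all genes by limma, with 3 at an unadjusted p under 0.05. Of all genes, 47.8% had a difference below 0, 15.3% were separated downwards and 2.58% were lower at that unadjusted p. The median and range of these mevalonate enzymes follow. Their median difference was -0.83, with values from -0.995 to -0.15, and it was -0.33 without siControl replicate 2. Fdps, which makes the substrate of Fdft1, stood at 0.43 and 0.59 against -0.43 and -0.54, a difference of -0.995 (SE 0.14, 95% interval -1.34 to -0.65; limma, adjusted p = 0.857). Its groups were even and wide apart, and it remained at -0.92 without siControl replicate 2. With a variance prior that follows the mean value Fdps passed (limma, adjusted p = 0.0418). That mean is taken over centred values and does not stand for signal level, which limits this call. Mvd, the mevalonate diphosphate decarboxylase, differed by -0.97 (SE 0.29) and Idi1, the isomerase of the isoprene units, by -0.90 (SE 0.32), and both moved with siControl replicate 2, to -0.53 and -0.42 without it. Hmgcs1, the synthase of hydroxymethylglutaryl-CoA, stood at 0.11 and 1.16 against -0.14 and -0.11, a difference of -0.75 that was -0.23 without that array. Fdps and Fdft1 are neighbours in the pathway, with 95% intervals of -1.34 to -0.65 and -0.31 to 0.44. The interval of Fdft1 is for an average over probe sets of opposite sign, and the difference between the 2 genes was not tested.

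**Figure D5:**
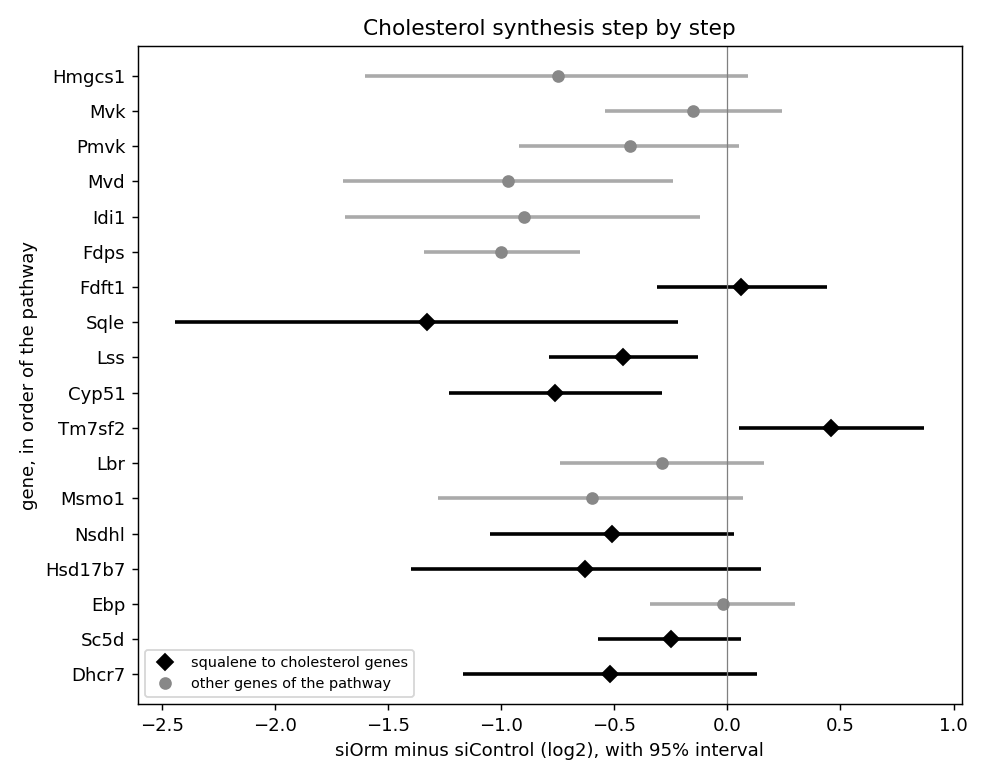
Difference siOrm minus siControl in log2 units with its 95% interval (horizontal axis) for the measured cholesterol synthesis genes in the order of the pathway (vertical axis); black diamonds are the 9 squalene to cholesterol genes and grey circles the other enzymes. Values lie below 0 except for Fdft1 at 0.06 and Tm7sf2 at 0.46.

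The control genes of the pathway differed less. Of 5 measured genes that control SREBP, the factor family of Srebf1 and Srebf2, 0 passed. Of the 5, 1 was separated downwards, beside 15.3% of all genes. Their median difference was -0.05, or -0.18 without siControl replicate 1 and 0.00 after quantile normalization. Srebf2 stood at 0.03 and 0.18 against 0.01 and -0.03, a difference of -0.12 (SE 0.13, 95% interval -0.45 to 0.21; limma, adjusted p = 0.999). Srebf1, which favours fatty acid synthesis, differed by -0.14 (SE 0.19), turning to 0.10 with siOrm replicate 1 left out, and overlapped. Mbtps1, the first of the proteases that free the factor, differed by 0.06 (SE 0.14), turning to -0.04 with siControl replicate 2 left out. The 4 measured genes of the isoprenoid branches, which draw on the same farnesyl diphosphate for other products, had a median of -0.09, or of -0.17 without siControl replicate 2. Among these Dhdds, of dolichol synthesis, differed by -0.27 (SE 0.13), Fntb, a farnesyltransferase subunit, by -0.16 (SE 0.12), and Ggps1, which makes geranylgeranyl diphosphate, by -0.01 (SE 0.14).

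The genes of sterol uptake, efflux and disposal showed no common direction, with 0 called in each list by limma. The 5 measured uptake and transport genes had a median of 0.05, or from 0.02 without siControl replicate 2 to 0.10 without siOrm replicate 2. Npc1, the lysosomal cholesterol exporter, differed by 0.29 (SE 0.15), Lrp1 by 0.11 (SE 0.14) and Stard4, a cytosolic sterol carrier, by -0.20 (SE 0.18). With siOrm replicate 1 left out Npc1 stood at 0.16 and Stard4 at 0.01, and with siControl replicate 2 left out Lrp1 stood at 0.00. The 7 genes of the liver X receptor and efflux had a median of 0.03 with all arrays and of -0.18 without siControl replicate 2. The transporters Abca1 and Abcg1 differed by -0.45 (SE 0.22) and -0.24 (SE 0.17), and Abcg5, which exports sterols into bile, by 0.28 (SE 0.20). Without siOrm replicate 1 Abca1 stood at -0.15 and Abcg1 at -0.10, and without siControl replicate 2 Abcg5 stood at 0.02. The list of cholesterol esterification and oxysterol enzymes had 6 measured genes, without the esterification enzymes Soat1 and Soat2. These 6 genes had a median of 0.17, or of 0.43 with siControl replicate 1 left out and 0.02 with siOrm replicate 1 left out. Cyp39a1, an oxysterol hydroxylase, stood at -0.16 and -0.85 against 0.22 and 0.16, a difference of 0.69 (SE 0.24) with an unadjusted p of 0.0307 by limma, and its difference was 0.35 without siControl replicate 2. Cyp27a1 differed by 0.22 (SE 0.18) and Cyp7b1 by -0.32 (SE 0.22); Cyp27a1 stood at 0.01 without siControl replicate 2 and Cyp7b1 at -0.03 without siOrm replicate 1. Of the 10 fatty acid synthesis genes known as targets of Srebf1, 5 were separated downwards and 1 upwards, beside 15.3% and 17% of all genes. The median of these 10 genes was -0.20. Acly, which supplies cytosolic acetyl-CoA, differed by -0.69 (SE 0.22), or by -0.41 when siControl replicate 2 was omitted, Acaca by -0.35 (SE 0.14) and Scd1 by -0.40 (SE 0.20), or by -0.16 without that array.

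The start sites of the genes were read from RefSeq (GRCm38.p6), in windows of 250 bases before to 50 bases after each start, to show what the genes share in sequence. Of the 9 genes 7 had a window, with 9 windows in all, 3 of them for Dhcr7; Fdft1 and Sqle had none. Windows were searched on both strands for the letters CCAAT, the box bound by NF-Y, and GGGCGG, the GC box bound by Sp1, which are known as partners of SREBP, and for the sterol response element core TCACNCCAC and the E-box TCACGTGA. All 7 genes held CCAAT and GGGCGG together in at least 1 window, without overlap between the motifs. Counted by window, 7 of the 9 held CCAAT, 8 held GGGCGG and 7 held both. Of all 32851 windows 37.4% held CCAAT, 35.7% held GGGCGG and 12.8% held both. Among the 13943 windows with over 55% of G and C, a limit chosen after the windows had been read, 33.6%, 69.4% and 23.8% did. The core TCACNCCAC and TCACGTGA were in 0 of the 9 windows and in 1.24% and 0.974% of all windows; these letters are not in these windows, which says nothing about binding.

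Windows of 4 genes are shown, with CCAAT and GGGCGG on either strand in capitals: Cyp51 for the separation of all its probe sets, Nsdhl because its profile lay nearest to the mean of the 9 genes, Hsd17b7 as its partner in demethylation, and Tm7sf2 as the gene that ran the other way. They lie at chr5:4104648-4104947 on the minus strand (Cyp51), chrX:72918271-72918570 on the plus strand (Nsdhl), chr1:169969156-169969455 on the minus strand (Hsd17b7) and chr19:6067801-6068100 on the minus strand (Tm7sf2), and each is written 5′ to 3′ along its gene.
Cyp51: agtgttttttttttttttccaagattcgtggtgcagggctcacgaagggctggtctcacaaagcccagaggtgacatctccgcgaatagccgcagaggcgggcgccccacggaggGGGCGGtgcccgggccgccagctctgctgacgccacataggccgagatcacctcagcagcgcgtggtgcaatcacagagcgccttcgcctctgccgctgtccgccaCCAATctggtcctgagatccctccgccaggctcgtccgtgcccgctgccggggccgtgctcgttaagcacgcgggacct
Nsdhl: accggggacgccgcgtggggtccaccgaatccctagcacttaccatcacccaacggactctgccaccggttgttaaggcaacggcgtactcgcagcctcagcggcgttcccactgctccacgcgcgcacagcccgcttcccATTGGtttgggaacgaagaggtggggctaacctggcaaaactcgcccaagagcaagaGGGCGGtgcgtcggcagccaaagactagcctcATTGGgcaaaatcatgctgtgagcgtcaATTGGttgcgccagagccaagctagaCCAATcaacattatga
Hsd17b7: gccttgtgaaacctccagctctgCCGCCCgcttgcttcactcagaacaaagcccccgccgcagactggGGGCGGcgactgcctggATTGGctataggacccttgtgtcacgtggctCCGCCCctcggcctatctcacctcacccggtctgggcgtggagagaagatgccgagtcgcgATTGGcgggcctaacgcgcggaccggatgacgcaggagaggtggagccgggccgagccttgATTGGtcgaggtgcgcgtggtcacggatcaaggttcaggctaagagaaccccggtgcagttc
Tm7sf2: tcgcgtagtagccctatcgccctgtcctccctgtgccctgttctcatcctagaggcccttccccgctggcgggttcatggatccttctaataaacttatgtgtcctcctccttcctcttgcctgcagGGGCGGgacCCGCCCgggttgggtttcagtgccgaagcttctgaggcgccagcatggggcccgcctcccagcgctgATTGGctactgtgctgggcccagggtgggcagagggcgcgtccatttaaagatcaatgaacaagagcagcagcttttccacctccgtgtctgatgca
The Cyp51 window holds 1 CCAAT at 29 bases before the start and 1 GGGCGG at 135. The Tm7sf2 window holds its CCAAT, on the opposite strand, at 47 bases and its GC boxes at 123 and 114 bases before the start. Tm7sf2 thus carries the same 2 motifs as those genes with a window that stood lower in siOrm; Sqle had no window and could not be read. The Nsdhl window holds 4 CCAAT matches, 3 of them on the opposite strand and 2 of them after the start, and the Hsd17b7 window holds 3, all on the opposite strand at 165, 73 and 12 bases before the start.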

How the data were processed

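Liver RNA was read on 2 siControl and 2 siOrm single-colour arrays; an Affymetrix Mouse Genome 430A 2.0 array per the series text, while the labels' protocols describe Agilent labelling and RNA taken from culture cells. The deposited table held 18852 probe sets with log2 values centred by the authors on the median of the 4 arrays for each probe set, as the values show (row medians within 4.8e-07 of 0). How arrays were normalized, with which software, and the base of the logarithm were not stated in the sources used here; base 2 was assumed, and with natural logarithms each difference would be 1.44 times larger. Signal over background cannot be seen, so no dim probe sets were removed, and the number of arrays limits the precision.

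Gene symbols came from the platform's annotation: 17209 had 1 symbol, 564 several and 1044 none, and 35 were controls. Probe sets of a gene were averaged. limma 3.58.1 in R 4.3.3 (lmFit, eBayes with a constant variance prior, 3.6 prior and 2 residual degrees of freedom) tested all 10923 genes; the fit was tested on simulated data. For 2 arrays against 2, an exact permutation test of a single gene cannot give a two-sided p below 0.333, so none was run. Named genes were the 9 genes, the orosomucoids, Srebf1, Srebf2 and Hmgcs1 as the measured sterol control genes, up to 3 of each pathway list by smallest p, and the 5 genes nearest in profile. The genes and lists were chosen with earlier results of these data known. Alternatives were another variance prior, quantile normalization, centring of arrays, other ways to combine probe sets, single probe sets, a replicate block and leaving out each array.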

Additional observations from a re-analysis of the deposited data

How the results depend on the processing

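With the titles' replicate numbers as a replicate block, 0 genes were lower and 0 higher, with a smallest adjusted p among the 9 genes of 0.531 by limma. Such a block cannot change a difference in this layout, so the median difference of the 9 genes stayed at -0.51. The deviations of same-numbered arrays correlated at 0.132 over genes, and the numbers are not stated to pair mice. Quantile normalization gave a median of -0.44, with 6 genes separated downwards. The variance prior with a trend, which follows the mean of centred values and not signal level, called 8 lower and 3 higher genes over the table. Leaving out each array in turn moved the median of the 9 genes between -0.78 and -0.25, the number of the 9 genes past the test between 0 and 2, and the calls over all genes between 0 and 183 lower and between 0 and 46 higher, the highest counts and the median of -0.78 without siControl replicate 1 and the median of -0.25 without siControl replicate 2. Fdft1 ranged from -0.07 without siControl replicate 2 to 0.19 without siControl replicate 1, and its probe sets 1438322_x_at and 1448130_at lay at -0.15 and -0.18 against a gene mean of 0.06; the cause was not tested. The other 8 genes kept their sign in all 10 alternatives and in each of their probe sets. The variance prior with a trend and the replicate block leave every difference as it was, so they could not show a change of sign. For Sqle, Tm7sf2, Nsdhl and Dhcr7, with 1 probe set each, the alternatives on probe sets could not either. The number of arrays limits the precision, and signal over background cannot be read.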
